A study of Mus musculus with 45 samples.

Results

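Expression was examined for 8 genes that write histone H3 lysine 9 (H3K9) methylation or guard imprinted DNA methylation, in mouse fully grown oocytes (FGOs) and in the late two-cell embryos that such oocytes gave rise to. The genes were chosen by name, as Zfp57, Zfp445, Trim28, Setdb1, Ehmt1, Ehmt2, Suv39h1 and Suv39h2, out of 26214 genes in the deposited table of length-scaled expression values (TPM, with the same total in every library), and all 8 were in the table and passed the filter on low values in every comparison. Control FGOs came from H3f3b K36M-flox/+ females, which carry a floxed allele for HA-tagged histone H3.3 with lysine 36 replaced by methionine (H3.3K36M). K36M FGOs came from females with the same allele and Gdf9-Cre, a recombinase driven by an oocyte-specific promoter, so that the mutant histone was made in oocytes. Both were hybrid C57BL/6 / 129 by strain and were taken at 3 to 4 weeks of age. The embryos came from control or K36M oocytes of females superovulated with CARD HyperOva and hCG, and these oocytes were fertilized in vitro with JF-1 sperm (labelled as hybrid C57BL/6 / 129 X JF-1), and they were collected 31 to 32 h after fertilization. A K36M oocyte-derived embryo had a wild-type father, and whether it inherited the mutant allele was not distinguished. The groups held 3 control and 3 K36M FGO libraries of 5 oocytes each, and 7 control and 8 K36M oocyte-derived libraries of 1 embryo each. Control two-cell replicate 4, which was not used by the study, was left out unless stated otherwise.

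KRAB zinc finger proteins bind DNA by sequence and recruit TRIM28 (KAP1), a scaffold that brings in the H3K9 methyltransferase SETDB1 together with proteins that read or maintain DNA methylation. ZFP57 and ZFP445 are the members of this class known to hold methylation at imprinting control regions through the wave of demethylation after fertilization, and ZFP57 binds the letters TGCCGC when the CG is methylated. EHMT1 (GLP) and EHMT2 (G9a) act as a heterodimer that makes mono- and dimethylated H3K9, and SUV39H1 and SUV39H2 are paralogous enzymes that make trimethylated H3K9 at pericentric heterochromatin. Oocytes store maternal transcripts of many of these genes, and most stored transcripts are degraded as the embryonic genome is activated at the two-cell stage.

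The FGO libraries had 16707 to 18559 genes above 0 TPM, and the two-cell libraries 10894 to 17329 (12115 to 17329 in controls and 10894 to 14879 in K36M oocyte-derived embryos). The 8 oocyte marker genes summed to 14948 to 15086 TPM in control FGOs and 12669 to 13899 TPM in K36M FGOs, which did not overlap. The 8 zygotic marker genes summed to 34.5 to 73.9 TPM in FGOs and 270.4 to 2440 TPM in embryos. Markers of granulosa and cumulus cells, which surround the oocyte, summed to 118.7 to 122.1 TPM in control FGOs and 122.3 to 193.0 TPM in K36M FGOs, with 8 of 8 markers reaching 1 TPM in both. The part of either marker list in the FGO genotype results was not tested. Blood markers summed to at most 0.380 TPM in FGOs, with Hba-a1 and Cd52 at 0. In embryos the granulosa and cumulus markers summed to 141.7 to 252.3 TPM in controls and 70.9 to 397.6 TPM in K36M oocyte-derived embryos, and the blood markers to 0 to 25.5 and 0 to 276.0 TPM; their part was likewise not tested. H3f3b, from which the mutant histone is expressed, had 293.1 ± 24.6 TPM in control and 398.1 ± 20.8 TPM in K36M FGOs (mean ± SD of 3 libraries each), and a gene-level value does not separate the mutant allele from the normal one. TPM is a share of a library, so a difference in one transcript cannot be told apart from an opposite difference in the rest, nor can the amount of RNA per cell be read from it.

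The promoters of Zfp57 and Setdb1 are shown because these genes fell between FGOs and embryos of both genotypes, and that of Trim28 because it encodes the protein that joins them and did not pass the test in either. Each window holds the 250 bases before an annotated start, 5′ to 3′ on the strand of the gene, from RefSeq on GRCm38.p6 (mm10), with CG dinucleotides in capitals. Zfp57 is shown at chr17:37000913-37001162 (plus strand), Setdb1 at chr3:95357203-95357452 (minus strand) and Trim28 at chr7:13023902-13024151 (plus strand).
Zfp57: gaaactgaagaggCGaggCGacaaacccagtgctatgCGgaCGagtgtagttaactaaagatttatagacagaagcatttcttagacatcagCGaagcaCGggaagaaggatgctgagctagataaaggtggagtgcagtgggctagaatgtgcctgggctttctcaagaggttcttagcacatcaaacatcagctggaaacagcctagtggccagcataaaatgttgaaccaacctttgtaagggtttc
Setdb1: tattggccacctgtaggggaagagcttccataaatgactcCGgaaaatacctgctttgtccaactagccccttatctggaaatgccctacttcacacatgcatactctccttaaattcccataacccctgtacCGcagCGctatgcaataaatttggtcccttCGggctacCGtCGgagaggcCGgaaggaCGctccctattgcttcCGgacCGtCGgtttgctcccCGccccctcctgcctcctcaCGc
Trim28: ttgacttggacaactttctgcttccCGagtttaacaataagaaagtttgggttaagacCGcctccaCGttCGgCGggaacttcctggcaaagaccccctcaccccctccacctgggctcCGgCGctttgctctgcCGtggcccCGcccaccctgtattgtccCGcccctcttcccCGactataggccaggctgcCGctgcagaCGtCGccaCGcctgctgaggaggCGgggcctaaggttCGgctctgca
The Zfp57 window held 6 CG dinucleotides, the Setdb1 window 13 and the Trim28 window 17, against a median of 6 over 32851 promoter windows of the same length (quartiles 2 and 16). All 8 genes matched at least 1 RefSeq start and gave 12 windows. The other starts of Zfp57 held 7 and 3 CG dinucleotides, the start of Zfp445 held 5, and those of Ehmt1, Ehmt2, Suv39h1 and Suv39h2 held 11 to 36. The letters TGCCGC, searched on both strands, were found in 3 of the 12 windows, 1 each of Trim28, Ehmt2 and Suv39h1, and in 8.68% of all promoters. GGGCGG was found in 9 of the 12, in none of the 3 Zfp57 windows, and in 32.7% of all promoters. CCAAT was found in 3 of the 12, 1 each of Zfp57, Setdb1 and Suv39h1, and in 33.8% of all promoters. None of these 3 motifs contains another. Only 3 of the 12 windows were at or below the median CG count. The shares over all promoters were not matched for CG content, and enrichment was not tested.

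Zfp57 was by far the most abundant of the 8 transcripts in FGOs. It lies on chromosome 17 from 37001163 to 37010729 (mm10, plus strand). Its levels in the 3 control FGO libraries were 1708, 1778 and 1657 TPM, and in the 3 K36M FGO libraries 1769, 1653 and 1583 TPM. These values overlapped, and with means of 1714 ± 61.2 and 1669 ± 93.9 TPM (mean ± SD of 3 libraries each) Zfp57 ranked 38th and 37th among all 26214 genes. In embryos the lowest, median and highest levels were 313.6, 415.0 and 469.8 TPM in controls and 194.1, 365.2 and 501.6 TPM in K36M oocyte-derived embryos. No embryo came near an FGO library, although Zfp57 still ranked 366th in control and 517th in K36M oocyte-derived embryos. Among the genes with a mean of at least 1 TPM in control embryos, 0.247% had a smaller SD of log2(TPM + 1) than Zfp57, whose SD was 0.19 against a median of 1.26. In K36M oocyte-derived embryos 4.77% did, with an SD of 0.45 for Zfp57 against a median of 1.45. A low spread was not particular to Zfp57. The same share was 2.68% for Zfp445 in control embryos and 3.10% for Trim28 in K36M oocyte-derived embryos. The genes compared were not matched by level.

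Zfp445 (chromosome 9, 122848910 to 122886851, minus strand), the other zinc finger guard of imprints, was far lower than Zfp57 in FGOs. It had 33.9, 40.6 and 39.7 TPM in control and 29.2, 50.9 and 41.2 TPM in K36M FGOs, and the groups overlapped. The lowest, median and highest levels were 52.4, 59.0 and 85.0 TPM in control embryos and 18.8, 41.4 and 81.3 TPM in K36M oocyte-derived embryos. All 7 control embryos thus lay above the 3 control FGO libraries, whereas K36M oocyte-derived embryos spanned the FGO values. The log2 ratio of Zfp445 to Zfp57 (each TPM + 1) was -5.46 ± 0.14 in control and -5.37 ± 0.45 in K36M FGOs (mean ± SD of 3 libraries each). In embryos it was -2.59 ± 0.31 in controls (SD of 7 embryos) and -2.94 ± 0.99 in K36M oocyte-derived embryos (SD of 8), so that every embryo lay above every FGO library in this ratio and Zfp57 stayed the higher transcript in all 21 libraries.

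Trim28 (chromosome 7, 13024152 to 13031032, plus strand), the corepressor scaffold, had 195.5, 186.5 and 217.0 TPM in control FGOs and 213.8, 256.2 and 277.2 TPM in K36M FGOs. The lowest K36M library lay between the control libraries. In embryos the lowest, median and highest levels were 142.7, 331.4 and 403.2 TPM in controls and 230.5, 395.7 and 522.3 TPM in K36M oocyte-derived embryos, with broad overlap. RefSeq places 13.5% of its exon bases opposite exons of Gm31649, and the strand setting of the authors' counting is not given in the sources used here.

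Setdb1 (chromosome 3, 95323525 to 95357202, minus strand), the methyltransferase that TRIM28 recruits, had 215.4, 234.1 and 219.2 TPM in control FGOs and 228.2, 232.6 and 245.9 TPM in K36M FGOs. Control embryos had 39.2 TPM at the lowest, 62.9 at the median and 110.8 at the highest, and K36M oocyte-derived embryos 10.2, 85.0 and 130.1 TPM. Every embryo lay below every FGO library, and the lowest value, in K36M oocyte-derived replicate 1, stood apart from the next lowest of its group at 63.4 TPM. Setdb1 and Trim28 were near equal in FGOs, with a log2 ratio of 0.16 ± 0.16 in controls and -0.072 ± 0.14 in K36M (mean ± SD of 3 libraries each). In embryos the ratio was -2.11 ± 0.38 in controls (SD of 7 embryos) and -2.53 ± 1.37 in K36M oocyte-derived embryos (SD of 8). The lowest FGO ratio was -0.17 and the highest embryo ratio -1.04, so the stages did not overlap.

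Of the pair that acts as a heterodimer, Ehmt1 (chromosome 2, 24790769 to 24919643, minus strand) had 54.5, 51.8 and 50.5 TPM in control FGOs and 57.8, 71.1 and 81.6 TPM in K36M FGOs, and these groups did not overlap. In embryos it ran from 16.3 over a median of 34.5 to 154.1 TPM in controls and from 53.2 over 70.8 to 129.7 TPM in K36M oocyte-derived embryos. Ehmt2 (chromosome 17, 34898463 to 34914073, plus strand) was the lowest of the 8 genes in FGOs, with 5.14, 2.98 and 7.15 TPM in controls and 6.20, 7.98 and 10.9 TPM in K36M. In control embryos it ran from 1.84 over 43.0 to 75.7 TPM, and 6 of the 7 lay above every control FGO library. K36M oocyte-derived embryos ran from 0.636 over 27.5 to 135.0 TPM, the widest spread of the 8 genes (SD of 2.12 on the log2 scale, n = 8). The log2 ratio of Ehmt1 to Ehmt2 was 3.19 ± 0.54 in control FGOs, 2.94 ± 0.13 in K36M FGOs (mean ± SD of 3 libraries each), 0.55 ± 1.15 in control embryos (n = 7) and 1.63 ± 2.26 in K36M oocyte-derived embryos (n = 8). Ehmt1 was the higher of the pair in all 6 FGO libraries, in 4 of 7 control embryos and in 6 of 8 K36M oocyte-derived embryos.

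Suv39h1 (chromosome X, 8061171 to 8074760, minus strand) and Suv39h2 (chromosome 2, 3455815 to 3474986, minus strand) were near equal in FGOs. Suv39h1 had 80.4, 78.1 and 87.9 TPM in control and 99.7, 75.3 and 71.0 TPM in K36M FGOs. Suv39h2 had 83.0, 79.6 and 89.3 TPM in control and 81.1, 74.2 and 76.1 TPM in K36M FGOs, and each gene's groups overlapped. Suv39h1 had a lowest, median and highest level of 35.9, 133.3 and 302.9 TPM in control embryos and 62.7, 119.4 and 147.5 TPM in K36M oocyte-derived embryos. For Suv39h2 these were 30.01, 53.5 and 69.3 TPM in control embryos and 13.6, 32.3 and 85.6 TPM in K36M oocyte-derived embryos. All 7 control embryos were below the control FGOs in Suv39h2, and 7 of the 8 K36M oocyte-derived embryos were below the mean of the K36M FGOs. The log2 ratio of Suv39h2 to Suv39h1 was 0.031 ± 0.012 in control and -0.072 ± 0.20 in K36M FGOs (mean ± SD of 3 libraries each), -1.02 ± 1.54 in control embryos (n = 7) and -1.65 ± 0.92 in K36M oocyte-derived embryos (n = 8). Suv39h2 was the lower of the pair in 8 of 8 K36M oocyte-derived embryos, and it was the higher in 2 of 7 control embryos. Exons of Suv39h2 share 23.8% of their bases with Dclre1c on the opposite strand, which had a mean of 15.6 TPM in control FGOs and 8.52 TPM in control embryos.

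**Figure D1:**
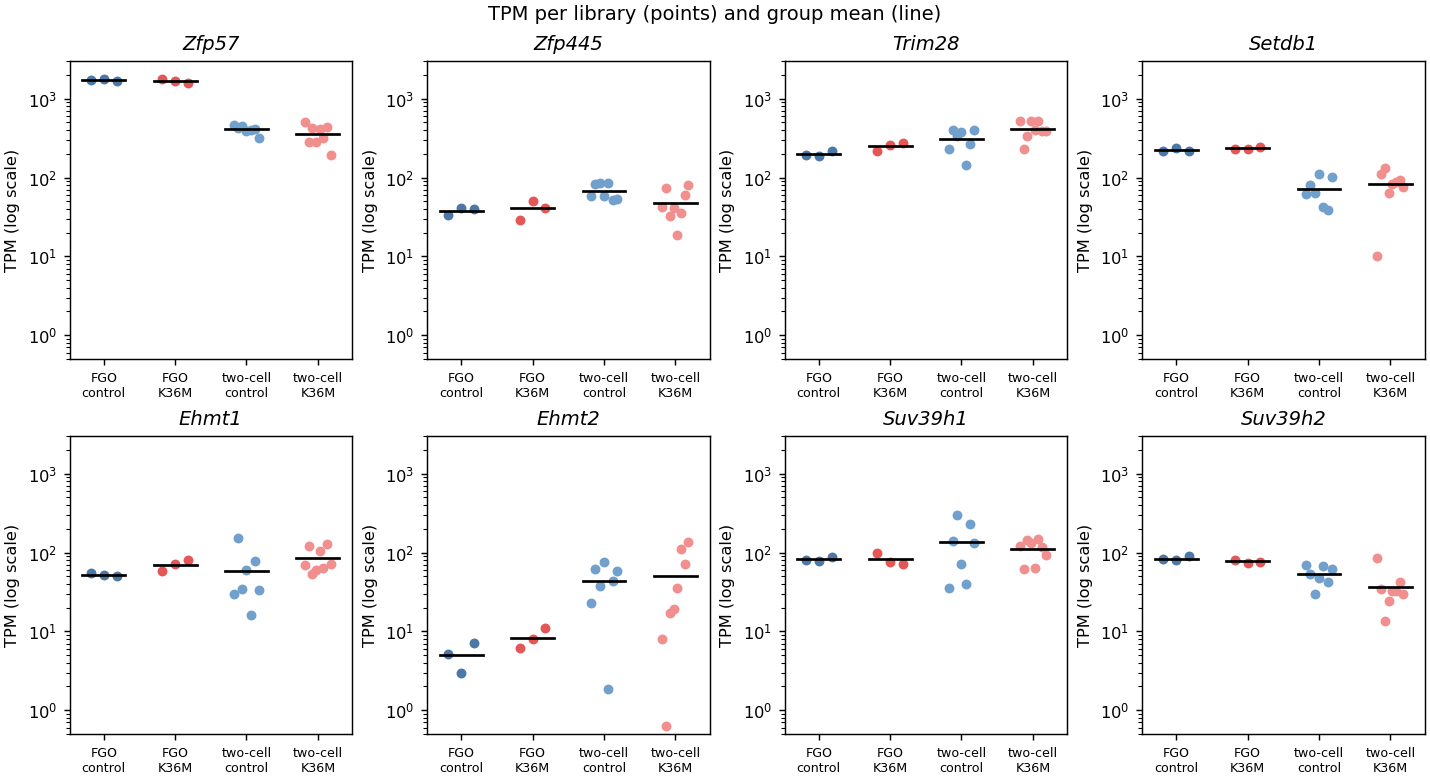
TPM of the 8 genes (log axis) in each library of control FGOs (n = 3), K36M FGOs (n = 3), control two-cell embryos (n = 7) and K36M oocyte-derived two-cell embryos (n = 8), with 1 point per library and a line at the group mean. Zfp57 lies between 1583 and 1778 TPM in FGOs and between 194.1 and 501.6 TPM in embryos, and Setdb1 also separates the stages, whereas Ehmt2 spreads from 0.636 to 135.0 TPM among embryos.

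Ordered by mean TPM, control FGOs ran Zfp57, Setdb1, Trim28, Suv39h2, Suv39h1, Ehmt1, Zfp445 and Ehmt2. The Zfp57 mean was 7.69 times that of Setdb1, and Zfp445 was 7.48 times Ehmt2. The ranges of Setdb1 and Trim28 overlapped, as did those of Suv39h2 and Suv39h1, and the other neighbours did not. In K36M FGOs Trim28 came before Setdb1 and Suv39h1 before Suv39h2, 2 exchanges within pairs whose ranges overlapped. In control embryos the order was Zfp57, Trim28, Suv39h1, Setdb1, Zfp445, Ehmt1, Suv39h2 and Ehmt2, and each neighbouring pair overlapped. In K36M oocyte-derived embryos Trim28 (414.5 ± 102.9 TPM) came before Zfp57 (356.8 ± 103.6 TPM, SD, n = 8), and the only gap without overlap was that between Zfp57 and Suv39h1.

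**Figure D2:**
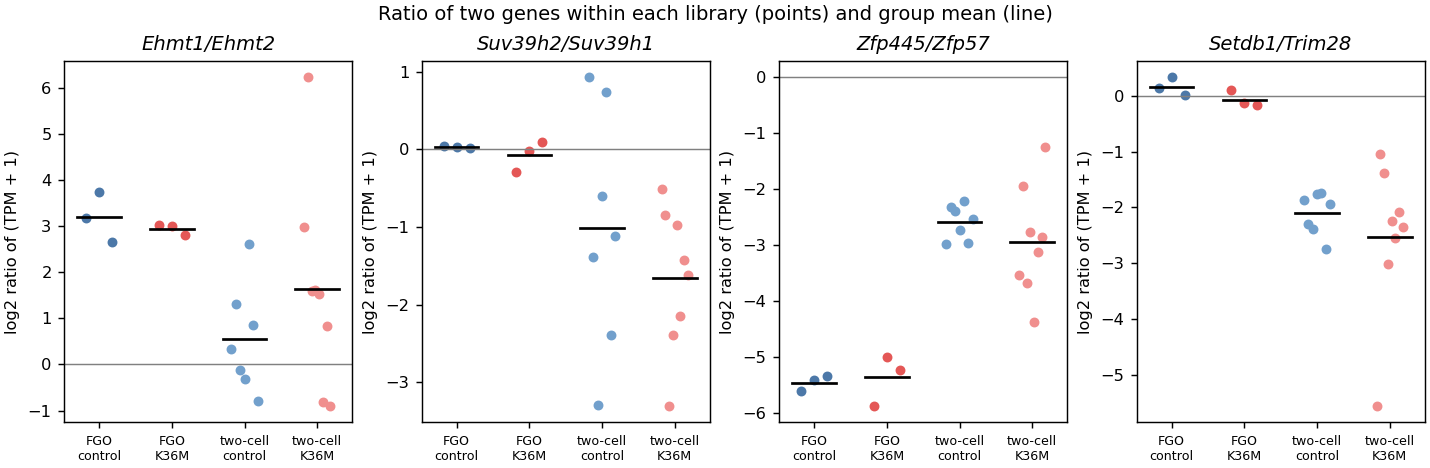
Log2 ratio of (TPM + 1) of 4 gene pairs within each library (points) with the group mean (line), for control FGOs (n = 3), K36M FGOs (n = 3), control embryos (n = 7) and K36M oocyte-derived embryos (n = 8). For Zfp445 to Zfp57 and for Setdb1 to Trim28 no embryo overlaps an FGO library, while for Ehmt1 to Ehmt2 and Suv39h2 to Suv39h1 the embryos spread widely.

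Whether K36M expression altered these transcripts was first asked in FGOs. None of the 8 genes passed an adjusted p of 0.05 in limma (3 against 3 libraries), and 0.00726% of the 13775 genes tested did. Ehmt1 and Trim28 had an unadjusted p under 0.05, both with the higher mean in K36M, and 10.5% of all genes did (5.15% higher). Fold changes are of TPM + 1, which understates those of low genes such as Ehmt2. The log2 fold change of Ehmt1 was 0.41 (standard error, SE, 0.14; limma adjusted p = 0.413), and 3 of 3 K36M libraries lay above every control, as 7.46% of all genes were. Trim28 had a log2 fold change of 0.31 (SE 0.11, limma adjusted p = 0.419). For Ehmt2 it was 0.65 (SE 0.33, limma adjusted p = 0.527), and 0.37 without control replicate 2 (limma adjusted p = 0.771). The remaining 5 genes lay between -0.12 (Suv39h2) and 0.080 (Setdb1), and the 95% interval of Zfp57, the tightest, ran from -0.19 to 0.11. Without K36M replicate 1, Ehmt1 had a log2 fold change of 0.54 (limma adjusted p = 0.0577) and Trim28 one of 0.42 (limma adjusted p = 0.0610), and the number of genes that passed in the whole table went from 1 to 300.

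At the two-cell stage, in 7 control and 8 K36M oocyte-derived embryos, none of the 8 genes passed the adjusted threshold in limma and none had an unadjusted p under 0.05, against 0.00% and 7.71% of the 17362 genes tested. Over all genes the median of the log2 fold changes was -0.26, which median-of-ratios scaling moved to -0.17 and quantile normalization to -0.04, and that of the 8 genes was -0.12. Ehmt1 had a log2 fold change of 0.79 (SE 0.44, limma adjusted p = 0.676), which is 1.05 above the median of all genes, and 7 of 8 K36M oocyte-derived embryos lay above the control mean. It was 0.51 with array weights (limma adjusted p = 0.723) and 0.56 without control embryo replicate 6 (limma adjusted p = 0.735). Trim28 had 0.46 (SE 0.25, limma adjusted p = 0.675), or 0.72 above the median of all genes (0.42 under quantile normalization), also with 7 of 8 embryos above the control mean, and 0.29 without control embryo replicate 6 (limma adjusted p = 0.744). Suv39h2 had -0.63 (SE 0.42, limma adjusted p = 0.713) and Zfp445 -0.59 (SE 0.39, limma adjusted p = 0.707), which are -0.38 and -0.33 relative to the median. Zfp57 was at -0.24 (SE 0.22), within 0.018 of the median of all genes, and under quantile normalization it was -0.28 relative to the median there. The intervals were wide: for Setdb1 the 95% interval of the log2 fold change ran from -0.91 to 1.00, and for Ehmt2 from -2.02 to 1.45, so that differences of that size were not detectable between these embryos. The log2 fold change of Ehmt2 was -0.29, and -0.87 to -0.064 with single embryos left out.

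**Figure D3:**
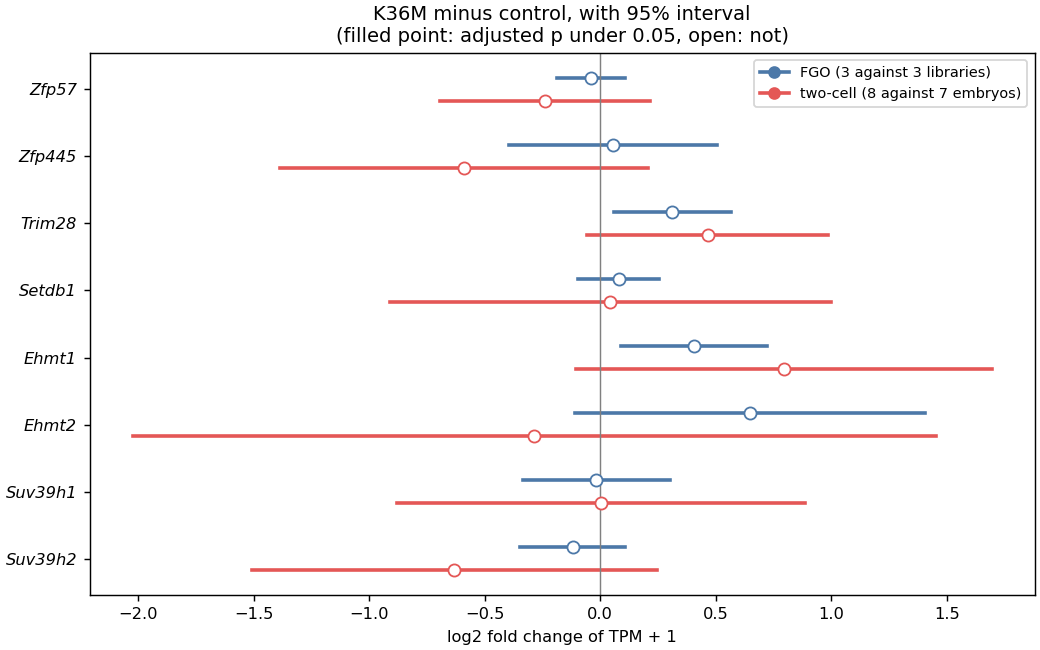
Log2 fold change of TPM + 1, K36M minus control, for the 8 genes in FGOs (3 against 3 libraries) and in two-cell embryos (8 K36M oocyte-derived against 7 control), with 95% intervals from limma. All points are open since none passed an adjusted p of 0.05, and the intervals of Ehmt1 and Trim28 in FGOs lie above 0 before adjustment.

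Between FGOs and embryos the picture was different. In controls, Zfp57 and Setdb1 were lower in embryos and passed the adjusted threshold, 2 of the 8 genes, where 26.6% of the 17358 genes tested passed (13.2% lower and 13.4% higher). Median-of-ratios scaling turned this split over all genes from 2292 lower and 2323 higher to 3106 lower and 1951 higher. Zfp57 fell by 2.08 on the log2 scale (SE 0.22, limma adjusted p = 1.58e-07), a 4.23-fold lower level, with 7 of 7 embryos below every FGO library. Setdb1 fell by 1.72 (SE 0.52, limma adjusted p = 0.0168), a 3.30-fold lower level, again in 7 of 7 embryos, but with any 1 of the 3 control FGO libraries left out its adjusted p was 0.0591 to 0.0678. The stages did not overlap with embryos higher in 14.1% and lower in 18.2% of all genes. Zfp445 and Suv39h2 were also apart in this way, yet neither passed: Zfp445 had a log2 fold change of 0.79 (limma adjusted p = 0.176), or 0.48 with median-of-ratios scaling (limma adjusted p = 0.429), and Suv39h2 one of -0.70 (limma adjusted p = 0.253). Ehmt2 had 2.45 (SE 1.07, limma adjusted p = 0.0925), and 2.16 with median-of-ratios scaling (limma adjusted p = 0.130), and passed under quantile normalization (2.70, limma adjusted p = 0.0268) and without control embryo replicate 6, its lowest (3.03, limma adjusted p = 0.0210). Leaving out this embryo was chosen after its values were seen, and removing the lowest value raises the difference. Trim28 had 0.54 (limma adjusted p = 0.179) and, without that embryo, 0.71 (limma adjusted p = 0.0365), but 0.22 with median-of-ratios scaling (limma adjusted p = 0.590) and 0.34 with control embryo replicate 4 added (limma adjusted p = 0.538). Suv39h1 and Ehmt1 had log2 fold changes of 0.35 and -0.19, which were 0.033 and -0.50 with median-of-ratios scaling and 0.58 and 0.052 without control embryo replicate 6.

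In K36M, 3 of the 8 genes passed, all lower in embryos, where 29.3% of all genes passed (18.6% lower and 10.8% higher). Zfp57 fell by 2.28 (SE 0.22, limma adjusted p = 2.30e-08), a 4.85-fold lower level, and Setdb1 fell by 1.76 (SE 0.51, limma adjusted p = 0.0115), both with 8 of 8 embryos below every FGO library, as for 17.2% of all genes. The median of all genes was -0.18, and relative to it Zfp57 was at -2.10 and Setdb1 at -1.58. Without K36M oocyte-derived embryo replicate 1, in which Setdb1 was lowest, Setdb1 fell by 1.38 (limma adjusted p = 0.00287), and without K36M FGO replicate 3 its adjusted p was 0.0509. Suv39h2 fell by 1.21 (SE 0.43, limma adjusted p = 0.0347), a 2.32-fold lower level with 7 of 8 embryos below the FGO mean, and with any 1 of the 3 K36M FGO libraries left out its adjusted p was 0.0982 to 0.119. Trim28 had 0.70 (limma adjusted p = 0.0698), and passed without control embryo replicate 6 (limma adjusted p = 0.0302), a library that enters here through the shared spread. Ehmt2 had 1.51 (limma adjusted p = 0.305), Suv39h1 0.37, Ehmt1 0.20 and Zfp445 0.15. Under median-of-ratios scaling Suv39h1 was at 0.20, Ehmt1 at 0.035 and Zfp445 at -0.018, and Ehmt1 was at 0.070 without K36M FGO replicate 1.

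Pools of 5 oocytes were compared with single embryos, with 10 against 13 cycles in the second amplification and with a JF-1 paternal genome only in embryos, and these cannot be told apart from the stage. The stage fit also used 1 spread per gene for both, although the median SD of log2(TPM + 1) over genes was 0.19 in control FGOs and 1.26 in control embryos. The control FGO and embryo libraries enter both the genotype and the stage comparisons, and so do the K36M ones. The difference of the genotype effects between the stages, tested for all genes in limma, passed for none of the 8 genes (0.00% of all genes), and none had an unadjusted p under 0.05 (1.15% of all genes). For Ehmt1 this difference was 0.39 (SE 0.70, 95% interval -1.05 to 1.83) and for Trim28 0.15 (SE 0.41, 95% interval -0.69 to 0.99) on the log2 scale. The value of Ehmt1 was 0.15 without control embryo replicate 6 and 0.085 with array weights. The remaining 6 genes lay between -0.94 (Ehmt2) and 0.020 (Suv39h1), with Zfp445 at -0.65 and Suv39h2 at -0.51. The value of Ehmt2 ran from -1.52 to -0.66 with single libraries left out.

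**Figure D4:**
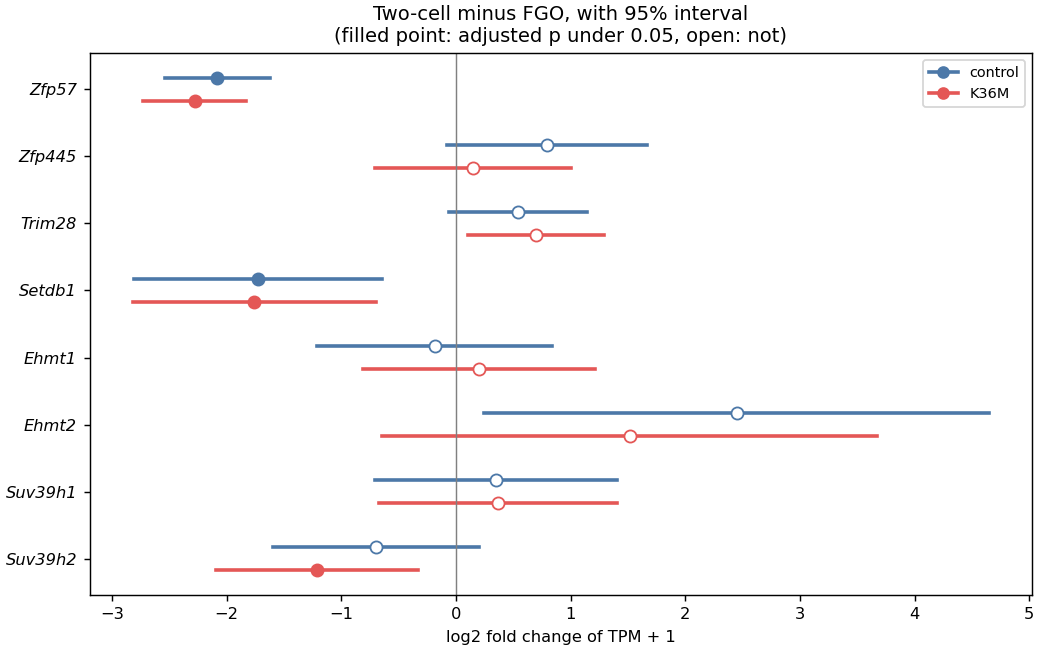
Log2 fold change of TPM + 1, two-cell embryos minus FGOs, for the 8 genes in controls (7 against 3 libraries) and K36M (8 against 3), with 95% intervals from limma and filled points where the adjusted p is under 0.05. Zfp57 (-2.08 and -2.28) and Setdb1 (-1.72 and -1.76) are filled in both genotypes, and Suv39h2 (-1.21) in K36M.

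The same comparisons were made for 47 genes in 6 lists of partners, readers, erasers and other guards of methylation. Between FGO genotypes 0 of the 46 that passed the filter were called in limma and 5 had an unadjusted p under 0.05 (3 higher and 2 lower in K36M), as 10.5% of all genes did. Dnmt1, the maintenance DNA methyltransferase, had the smallest p, with 2374 to 2608 TPM in control and 1620 to 1843 TPM in K36M FGOs and a log2 fold change of -0.52 (SE 0.069, limma adjusted p = 0.0944). Without K36M replicate 1 it was -0.56 (limma adjusted p = 0.0205). Phf8, an X-linked H3K9 demethylase, came next, with 80.4 to 93.2 TPM in control and 107.6 to 117.5 TPM in K36M FGOs and a log2 fold change of 0.33 (SE 0.10, limma adjusted p = 0.383). Neither gene's groups overlapped, but both were named for the smallest p in this same comparison. The groups were also apart for other related genes, among them Phf2, Prdm2 and Zfp809, and with K36M higher for 7.46% of all genes. In two-cell embryos 0 of 47 were called in limma and 2 had an unadjusted p under 0.05, against 7.71% of all genes. Zfp819, a KRAB zinc finger gene, had 2.86 to 45.3 TPM in control and 0 to 16.8 TPM in K36M oocyte-derived embryos, which gave a log2 fold change of -2.18 (SE 0.78, limma adjusted p = 0.563). Hells, which encodes the chromatin remodeller LSH, had 151.2 to 391.9 TPM in control and 212.4 to 744.5 TPM in K36M oocyte-derived embryos, which gave a log2 fold change of 0.61 (SE 0.26, limma adjusted p = 0.603).

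Between the stages in controls, 19 of the 47 passed, 10 higher and 9 lower in embryos, against 26.6% of all genes, and the median log2 fold change over the 47 was 0.20 against 0.00 over all genes. In K36M, 19 passed as well, again 10 higher and 9 lower, against 29.3% of all genes. Among the other guards of DNA methylation 6 of 7 passed in controls, 3 in each direction. Dnmt1 fell from 2498 ± 118.1 (SD, n = 3) to 156.8 ± 50.9 TPM (SD, n = 7), a log2 fold change of -4.04 (limma adjusted p = 5.27e-12), and Uhrf1, its cofactor at hemimethylated DNA, fell from 967.3 ± 48.0 to 101.1 ± 46.7 TPM, a log2 fold change of -3.39 (limma adjusted p = 2.79e-07). Both fell further than Zfp57 in the point estimate, a difference that was not tested.

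Of the 11 H3K9 demethylases, 3 passed in controls and all were higher in embryos, where 26.6% of all genes passed (13.4% higher). Kdm4c went from 0.899 to 2.47 TPM in FGOs to 65.9 to 145.5 TPM in embryos, a log2 fold change of 5.21 (limma adjusted p = 1.47e-07). Kdm3a went from 7.60 to 9.92 TPM to 74.5 to 269.8 TPM, a log2 fold change of 4.09 (limma adjusted p = 1.15e-07). These enzymes remove H3K9 methyl groups. The groups of both genes were apart in either genotype, and in controls 14.1% of all genes were apart with embryos higher. In K36M 4 passed, 3 higher and 1 lower in embryos, against 10.8% and 18.6% of all genes. The lower one was Phf8, which fell by 1.21 (limma adjusted p = 0.0225) and was named after its values were seen, as was Cbx5 of the HP1 genes. Without any 1 K36M FGO library its adjusted p in limma was 0.0731 to 0.0906, and in controls Phf8 had -0.26 (limma adjusted p = 0.674).

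Among the 3 HP1 genes, which encode readers of methylated H3K9, Cbx3 rose (log2 fold change 3.42, limma adjusted p = 8.83e-05) and Cbx1 fell (log2 fold change -1.92, limma adjusted p = 0.0319) in controls. The call of Cbx1 was lost without any 1 control FGO library (limma adjusted p = 0.0902 to 0.105), with control embryo replicate 4 added (0.0940) and with all genes above 0 tested (0.0509). In K36M, Cbx3 (3.54) and Cbx5 (1.12, limma adjusted p = 0.0355) passed, whereas Cbx1 had -1.35 and did not (limma adjusted p = 0.121). Cbx5 did not pass without any 1 K36M FGO library (limma adjusted p = 0.0788 to 0.150), without K36M oocyte-derived embryo replicate 1 (0.0504), with control embryo replicate 4 added (0.0502) or with median-of-ratios scaling (0.0775). Of the 16 partners of H3K9 methyltransferases, 6 passed in controls, 3 in each direction, where 13.4% of all genes passed as higher and 13.2% as lower. Atf7ip2, a paralogue of the SETDB1 partner ATF7IP, rose from 15.9 to 16.2 TPM to 46.0 to 120.2 TPM (log2 fold change 2.19, limma adjusted p = 0.00248), and had 1.62 (limma adjusted p = 0.135) with control embryo replicate 4 added. Sumo2, which encodes the modifier through which TRIM28 engages SETDB1, fell from 182.2 to 193.5 TPM to 18.04 to 147.7 TPM (log2 fold change -2.16, limma adjusted p = 0.0242), a call that was lost without any 1 control FGO library. Of the 4 other H3K9 SET-domain genes Prdm16 alone passed and fell (log2 fold change -2.45, limma adjusted p = 0.0199), and of 6 other KRAB zinc finger genes with known targets Zfp708 alone passed and fell (log2 fold change -3.32, limma adjusted p = 0.0102). Prdm16 lost its call without any 1 control FGO library (limma adjusted p = 0.0729 to 0.0782) and with a pseudocount of 0.1 (0.108), and Zfp708 lost its call without control FGO replicate 1 (limma adjusted p = 0.0732). Zfp708 was listed at 0 in a control embryo and Prdm16 at 0 in a K36M oocyte-derived embryo. Reads of related zinc finger genes, and of Sumo2, Cbx1 and Cbx3 with their processed copies in the genome, may have been split by the authors' counting.

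**Figure D5:**
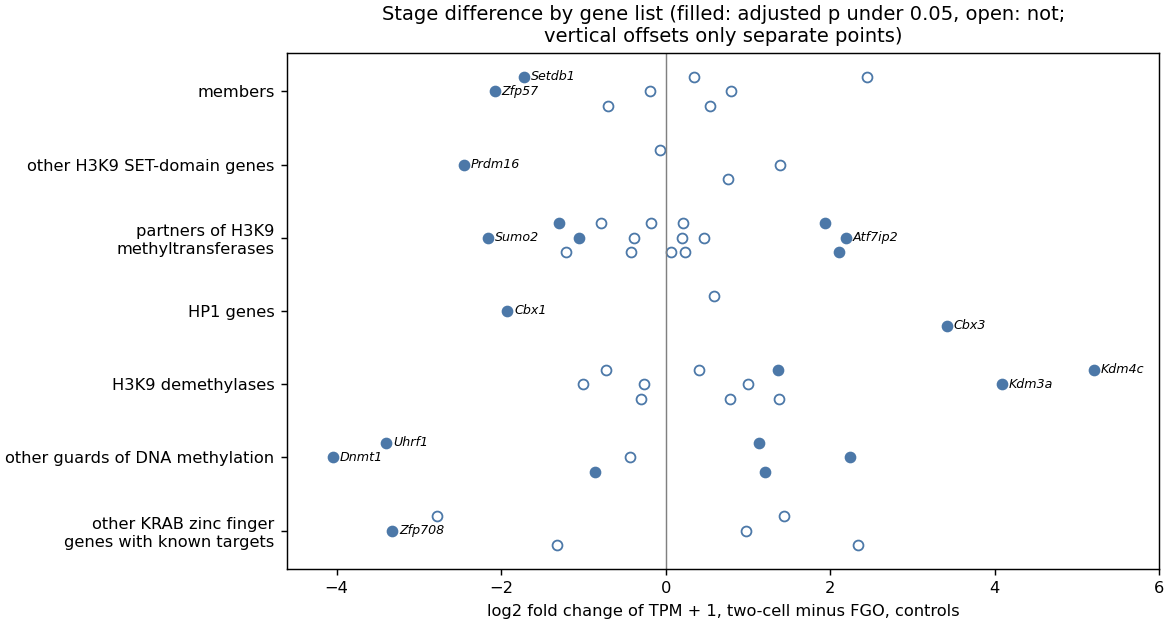
Log2 fold change of TPM + 1, control embryos (n = 7) minus control FGOs (n = 3), for the 8 genes and the 47 related genes in 6 lists, with filled points where the limma adjusted p is under 0.05. Dnmt1 (-4.04) and Uhrf1 (-3.39) lie at the left end and Kdm4c (5.21) and Kdm3a (4.09) at the right, with Zfp57 and Setdb1 among the lower genes.

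Genes with the most similar profile were sought over the 21 libraries, where most of the likeness comes from the stages. For Zfp57 they were Gcnt4, Nlrp14 and Ldhb, each with a Pearson correlation of 0.973, which was 0.69, 0.63 and 0.61 once stage means were removed. Nlrp14, an oocyte NLR family gene, had means of 2922 and 2321 TPM in control and K36M FGOs and of 254.3 and 198.3 TPM in control and K36M oocyte-derived embryos. For Setdb1 they were Mipep (0.877), Tubb6 (0.873) and Aspm (0.871), with 0.75, 0.69 and 0.70 within stages. For Trim28 they were Tuft1 (0.891), Rps2 (0.859) and Slc52a2 (0.855), with 0.85, 0.80 and 0.93 within stages. All libraries of a stage share preparation and scale, so these values describe the table only. Among the 15 embryos, with group means removed, the 8 genes ranged in Pearson correlation from -0.63 (Suv39h2 with Setdb1) to 0.71 (Ehmt2 with Trim28), and Zfp57 with Trim28 had 0.019. The first value rested on K36M oocyte-derived embryo replicate 1, without which it was -0.12 and the lowest was -0.61 (Suv39h2 with Suv39h1). Ehmt2 with Trim28 had 0.56 without control embryo replicate 6. These points share 1 scaling per library, and no test was made.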

How the data were processed

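RNA-seq libraries of 6 FGO pools and 16 single embryos were analysed. The authors clipped 3 bases from Read 2 (Trim Galore), aligned to mm10 with HISAT2, discarded ribosomal RNA reads with bedtools, counted genes with featureCounts and deposited TPM values that sum to 1000000 per library. The annotation, gene lengths and strand setting are not given in the sources used here. Read depth cannot be recovered from TPM, so none is given for single values.

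Differences were estimated on log2(TPM + 1) using limma 3.58.1 (R 4.3.3; lmFit, then eBayes with a trend) for genes whose mean TPM was 1 or more, with Benjamini-Hochberg adjustment over all of them and a threshold of 0.05. Genotypes were fitted within each stage, and 1 fit of 4 group means over 21 libraries gave the stage comparisons and the interaction. The script was tested on simulated data with 1 spread per gene in all groups. That test does not cover the unequal spread of FGO and embryo libraries. Nothing says that libraries came from separate animals, so p-values measure the spread between these libraries. The members, lists and tests were chosen with earlier results of these data known. All 8 members were named. The related genes named were up to 2 with the largest called stage change in controls from each list and the 2 with the smallest p in each genotype comparison. For 3 members the 3 genes of highest correlation were named. RefSeq (GRCm38.p6) held 99.82% of the symbols. Same-numbered libraries did not deviate together (correlations of -0.10 to 0.10), so replicate numbers were not treated as pairs. Alternatives were a pseudocount of 0.1, all genes above 0, a mean TPM of 5 or more, quantile and median-of-ratios scaling, no trend, array weights, a replicate block, single libraries left out, and control two-cell replicate 4 added. Leaving out 2 single embryos, control replicate 6 and K36M oocyte-derived replicate 1, was chosen after seeing the data.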

Additional observations from a re-analysis of the deposited data

Results flagged for a closer look

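Among 24 sets of embryos checked (8 genes and 4 ratios in each genotype), 3 had a lowest embryo farther from the others than the Dixon 95% limit, where chance gives 1.2. Setdb1 had 10.2 TPM in K36M oocyte-derived replicate 1, and the log2 ratio of Setdb1 to Trim28 was -5.55 in the same embryo. That embryo had 522.3 TPM of Trim28, the highest of its group, and 85.6 TPM of Suv39h2, also the highest. Ehmt2 had 1.84 TPM in control replicate 6, which also had the lowest Trim28 (142.7 TPM) and Ehmt1 (16.3 TPM) of its group. Whether these values are of the embryo or of the library was not tested.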

How the results depend on the processing

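Of 1032 alternative values of single genes, 948 kept their direction and side of the threshold, 41 lost it, 12 gained it and 31 turned in direction. Of 248 counts and mean ratios, 215 moved by no more than 1.5 times or 1 SD. Zfp57 passed between stages in both genotypes under every alternative. Leaving out single libraries gave 0 to 300 genes (1 otherwise) and 0 to 3 related genes for FGO genotype, 2844 to 4874 genes and 1 to 4 of the 8 genes for stage in controls, 1 to 4 of the 8 genes for stage in K36M, and 0 to 3 genes for the interaction. The count for FGO genotype was 0 with a pseudocount of 0.1, all genes above 0, no trend or the replicate block. The count for two-cell genotype was 5 with no trend and 1 with array weights, and for the interaction 13 with all genes above 0, 1 with no trend and 3 with array weights. Array weights gave 9730 genes, 6 of the 8 and 35 related genes for stage in controls, and 8527, 5 and 31 for stage in K36M. The 4 added in controls were Ehmt2 (2.92), Zfp445 (0.85), Trim28 (0.73) and Suv39h2 (-0.78). Those added in K36M were Ehmt2 (1.55) and Trim28 (0.71). The mean log2 ratio of Ehmt1 to Ehmt2 in K36M FGOs was 3.08 with a pseudocount of 0.1. Estimates near 0 turned in direction. In FGO genotype these were Zfp57 (0.015, quantile normalization) and, with single libraries left out, Zfp445 (-0.12 to 0.27) and Suv39h1 (-0.16 to 0.078). In two-cell genotype they were Setdb1 (-0.092 with array weights, -0.067 to 0.42 without single embryos) and Suv39h1 (-0.11 with array weights, -0.043 with the replicate block, -0.094 with replicate 4, -0.22 to -0.028 without single embryos). In the stage comparisons they were Ehmt1 in controls (0.060 with array weights, -0.21 to 0.052 without single libraries) and Zfp445 in K36M (-0.018 with median-of-ratios scaling, -0.063 to 0.33 without single libraries). In the interaction they were Trim28 (-0.020 with array weights, -0.018 to 0.23 without single libraries), Setdb1 (0.11 with median-of-ratios scaling, 0.037 with quantile normalization, 0.35 with replicate 4, -0.15 to 0.34 without single libraries) and Suv39h1 (-0.053 with array weights, -0.026 with the replicate block, -0.077 with replicate 4, -0.21 to 0.17 without single libraries). The causes were not tested. The replicate block gave Suv39h2 in K36M an adjusted p of 0.0823 in limma and changed no other call of the 8 genes; it gave Ehmt2 between stages 1.55 in controls (limma adjusted p = 0.368) and 0.67 in K36M (limma adjusted p = 0.732), and Zfp708 in both genotypes and Cbx5 in K36M were also lost.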
